A study of Mus musculus with 4 samples.

Results

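In the sorted intestinal stem cells analysed here, 10 genes of major histocompatibility complex (MHC) class I and class II antigen presentation were expressed in all 4 mice. All 10 were higher in the mouse numbered 2 of both genotypes, where 26.2% of the 12621 genes tested were. In none of the 10 did the values of the genotypes separate. Of genes tested, 31.0% had both knockout values below both wild-type values and 25.6% had both above. The genes described are 10 rows of the deposited table, chosen by symbol from 18436: the class II genes Cd74, H2-Aa, H2-Ab1, H2-Eb1, H2-DMa and their coactivator Ciita, and the class I genes B2m, H2-K1, H2-D1 and Tap1. All 10 were found and passed the filter on low values. Values are FPKM, fragments scaled by transcript length and by the mapped total of the library, so a level can be compared between genes and is relative to all other genes in the same mouse.

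RNA came from Lgr5-GFP high cells, sorted from the crypts of 2 Lgr5-CREPTWT and 2 Lgr5-CREPTKO mice on a C57BL/6 background. Lgr5-CREPTWT mice carried Lgr5-EGFP-IRES-creERT2, which places GFP and a tamoxifen-inducible Cre under the Lgr5 gene, and Lgr5-CREPTKO mice carried it together with CREPT fl/fl. Tamoxifen was injected into both groups, 1 mg on each of 5 days, and day 7 was the day of sorting. GFP in this line is mosaic, so part of the crypts is not sampled. The study used adult mice of both sexes, and which of these 4 were male or female was not given in the sources used here. Rprd1b, which encodes CREPT, was 17.7 and 18.1 FPKM in the Lgr5-CREPTWT mice and 6.65 and 7.36 FPKM in the Lgr5-CREPTKO mice (log2 fold change -1.29, adjusted p = 0.0280 from limma's moderated test). Lgr5, the gene used for sorting, was 47.7 and 37.7 FPKM, and 52.04 and 60.1 FPKM. The FPKM values summed to between 468830 and 499327 per mouse. The table holds no read counts, so the depth behind each value is unknown.

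MHC class II molecules are pairs of an alpha and a beta chain that carry peptides from endosomes to CD4+ T cells. The invariant chain, Cd74, blocks the groove until it is degraded, H2-DM then exchanges its remnant for peptide, and CIITA switches the whole set of genes on. MHC class I molecules pair a heavy chain with beta-2-microglobulin and present peptides that the TAP transporter brings in from the cytosol, on nearly all nucleated cells. Class II genes are best known from dendritic cells, macrophages and B cells, but intestinal epithelium, Lgr5+ stem cells included, also expresses them, and interferon gamma induces both classes.

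Promoter sequences are shown because class I and class II genes are known to share an upstream module that ends in an inverted CCAAT element, the Y box. Of the 10 genes, 7 had a promoter in the RefSeq set on GRCm38.p6, 250 bases before to 50 after a start, and 5 of these are printed, 5′ to 3′ on the strand of the gene. For H2-K1 and H2-DMa the set holds more than 1 start, and the first listed is used for H2-K1. Capitals mark, on the strand of the gene, ATTGG, the core of the inverted CCAAT element, TGACG, part of the site of CREB-type factors, and GGGGATTCC, an NF-kB type element of class I genes. They are H2-Aa at chr17:34287774-34288073 on the minus strand, H2-Eb1 at chr17:34305617-34305916 on the plus strand, H2-K1 at chr17:34000298-34000597 on the minus strand, H2-D1 at chr17:35262844-35263143 on the plus strand and B2m at chr2:122147437-122147736 on the plus strand.
H2-Aa: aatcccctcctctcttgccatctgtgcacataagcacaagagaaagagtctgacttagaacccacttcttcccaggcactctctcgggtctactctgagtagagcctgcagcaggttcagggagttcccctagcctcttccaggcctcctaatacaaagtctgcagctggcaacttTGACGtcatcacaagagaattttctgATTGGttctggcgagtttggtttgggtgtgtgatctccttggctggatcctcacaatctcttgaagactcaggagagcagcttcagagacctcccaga
H2-Eb1: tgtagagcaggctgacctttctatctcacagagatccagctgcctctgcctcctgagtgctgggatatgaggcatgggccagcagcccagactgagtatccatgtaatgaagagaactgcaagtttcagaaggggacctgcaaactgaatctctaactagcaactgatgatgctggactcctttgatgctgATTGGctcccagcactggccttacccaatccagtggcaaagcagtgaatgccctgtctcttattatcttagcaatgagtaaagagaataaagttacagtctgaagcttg
H2-K1: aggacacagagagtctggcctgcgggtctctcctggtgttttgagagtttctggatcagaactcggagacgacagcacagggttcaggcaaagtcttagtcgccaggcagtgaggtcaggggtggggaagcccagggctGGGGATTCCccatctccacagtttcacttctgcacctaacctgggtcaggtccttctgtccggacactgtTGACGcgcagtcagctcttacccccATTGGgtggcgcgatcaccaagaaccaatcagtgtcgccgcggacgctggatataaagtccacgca
H2-D1: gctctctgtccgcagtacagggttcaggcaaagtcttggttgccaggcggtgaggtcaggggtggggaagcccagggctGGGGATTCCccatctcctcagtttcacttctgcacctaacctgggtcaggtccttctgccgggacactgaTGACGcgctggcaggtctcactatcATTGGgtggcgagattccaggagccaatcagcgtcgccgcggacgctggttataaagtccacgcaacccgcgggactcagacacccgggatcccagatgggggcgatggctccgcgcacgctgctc
B2m: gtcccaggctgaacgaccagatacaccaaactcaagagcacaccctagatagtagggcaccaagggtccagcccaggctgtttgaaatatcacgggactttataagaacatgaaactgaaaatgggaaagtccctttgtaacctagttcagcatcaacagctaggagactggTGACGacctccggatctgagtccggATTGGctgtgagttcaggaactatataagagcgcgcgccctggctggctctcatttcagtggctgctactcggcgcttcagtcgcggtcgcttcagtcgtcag

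Searched on both strands, ATTGG was found in all 7 genes and in 37.4% of 32851 promoters of the same length, and TGACG in 5 of the 7 and in 20.8%. In 4 of the 7 genes, ATTGG began 25 or 26 bases after TGACG on the strand of the gene, at 26 bases in H2-Aa and 25 bases in H2-K1, H2-D1 and B2m. Over all promoters 0.0944% had this spacing on that strand, which was looked for after the sequences had been seen. H2-Eb1, H2-DMa and Tap1 did not have it in these windows. CTGATTGG, a longer form that contains ATTGG, occurred on either strand in 5 of the 7 (4.10% of promoters), in H2-Aa and H2-Eb1 on the strand of the gene and in H2-K1 and H2-D1 on the other, away from the marked ATTGG. GGGGATTCC was found in H2-K1 and H2-D1 and in 0.250% of promoters, and these 2 promoters matched at 206 of 227 aligned bases. GAAANNGAA, part of an interferon-stimulated element, occurred in this exact spelling in B2m alone of the 7 (8.56% of promoters). H2-K1 and H2-D1 both hold tttcacttc shortly after GGGGATTCC. This has the parts of that pattern in swapped order on the other strand, so the search did not count it. Other forms of the element were not searched, so a lack of it in the other genes is not shown. These matches are letters in a window and say nothing of binding in these cells.

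Cd74, on chromosome 18 of GRCm38.p6 from 60803849 to 60812652, had the highest mean level of the 10 genes and ranked 100 of 18436 in the table. It was 509 and 1165 FPKM in the Lgr5-CREPTWT mice and 282 and 876 FPKM in the Lgr5-CREPTKO mice. In each genotype, the mouse numbered 2 was the high one, by 2.29-fold and 3.11-fold, and the genotypes overlapped. Same-numbered mice are different animals, and mice 1 and 2 are names, not an order.

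The chains of the class II molecule lie side by side on chromosome 17, H2-Ab1 from 34263227 to 34269418, H2-Aa from 34282744 to 34287823 and H2-Eb1 from 34305867 to 34316674. H2-Ab1, the beta chain of I-A, was 127 and 314 FPKM in the Lgr5-CREPTWT mice and 67.1 and 218 FPKM in the Lgr5-CREPTKO mice. H2-Aa, its alpha chain, was 66.7 and 167 FPKM, and 24.5 and 96.5 FPKM. It had the widest range of the 10 genes, 6.82-fold between the lowest and the highest mouse. H2-Eb1, the beta chain of I-E, was 68.0 and 162 FPKM, and 43.4 and 120.2 FPKM. In all 3 the order from low to high was Lgr5-CREPTKO mouse 1, Lgr5-CREPTWT mouse 1, Lgr5-CREPTKO mouse 2 and Lgr5-CREPTWT mouse 2, as for Cd74. C57BL/6 mice make no I-E alpha chain, so H2-Eb1 has no partner of its own in this strain.

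H2-DMa spans 34119693 to 34139101 of chromosome 17 and encodes the alpha chain of the peptide exchanger. Its level was 18.6 and 36.7 FPKM in the Lgr5-CREPTWT mice and 11.1 and 23.1 FPKM in the Lgr5-CREPTKO mice. The order over the mice was that of the class II chains. Ciita, on chromosome 16 from 10480014 to 10531064, had the lowest level of the 10, with 4.76 and 6.69 FPKM, and 3.07 and 7.76 FPKM. Its highest value was in Lgr5-CREPTKO mouse 2, unlike that of the other 5 class II genes.

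B2m encodes the light chain of class I and spans 122147687 to 122153082 of chromosome 2. It measured 384 and 611 FPKM in the Lgr5-CREPTWT mice and 329 and 390.3 FPKM in the Lgr5-CREPTKO mice. H2-K1, a classical heavy chain, spans 33996012 to 34000619 of chromosome 17 and was 233 and 373 FPKM, and 209 and 323 FPKM. H2-D1, the other classical heavy chain of this strain, from 35263094 to 35267497 on the same chromosome, was 155 and 276 FPKM, and 141 and 221 FPKM. These 3 genes followed the order of the class II chains, over a narrower range of 1.85-fold, 1.79-fold and 1.96-fold between the lowest and the highest mouse. Tap1, which encodes a subunit of the peptide transporter and lies from 34187556 to 34197225, was 16.3 and 23.4 FPKM, and 19.0 and 31.6 FPKM. It was the one gene of the 10 with its lowest value in Lgr5-CREPTWT mouse 1 and a higher mean in Lgr5-CREPTKO mice.

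**Figure D1:**
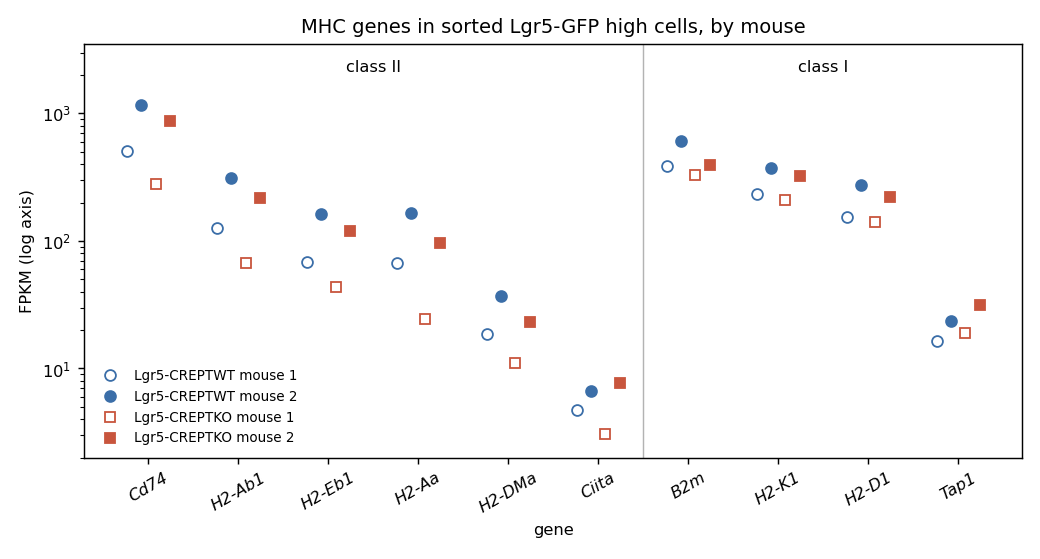
FPKM of the 10 MHC genes on a log axis, 1 point per mouse (circles Lgr5-CREPTWT, squares Lgr5-CREPTKO, open symbols mouse 1, filled symbols mouse 2). In all 10 genes the filled symbol lies above the open one of the same genotype, and the genotypes overlap.

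By mean level the order was Cd74, B2m, H2-K1, H2-D1, H2-Ab1, H2-Eb1, H2-Aa, Tap1, H2-DMa and Ciita. Neighbours in this order had overlapping ranges over the 4 mice, apart from H2-DMa and Ciita. Within a mouse, B2m was above H2-K1 and H2-K1 above H2-D1 in 4 of 4 mice, while Cd74 was above B2m in 3 of 4, and H2-Eb1 above H2-Aa in 3 of 4. In Lgr5-CREPTKO mouse 1, the mouse with the least class II RNA, B2m was the more abundant of Cd74 and B2m.

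Summed over the 6 class II genes, the level was 794 and 1852 FPKM in the Lgr5-CREPTWT mice and 431 and 1341 FPKM in the Lgr5-CREPTKO mice, so mouse 2 stood 2.33-fold and 3.11-fold above mouse 1. The 4 class I genes summed to 788 and 1284 FPKM, and to 698 and 966 FPKM, or 1.63-fold and 1.38-fold. All 10 genes were higher in mouse 2 in both genotypes, where 26.2% of the 12621 genes tested were. A difference of more than 2-fold on log2(FPKM + 0.5) between the Lgr5-CREPTWT mice was found in 4 of the 10 (0.919% of genes tested), namely Cd74, H2-Aa, H2-Ab1 and H2-Eb1. Between the Lgr5-CREPTKO mice it was found in all 6 class II genes and in no class I gene, or 6 of the 10 (2.08% of genes tested). These are differences between single mice with no test. The median absolute difference between mice of a genotype over all genes tested was 0.13 on the log2 scale in either genotype, and the 95th percentile was 0.64 in Lgr5-CREPTWT and 0.70 in Lgr5-CREPTKO mice.

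**Figure D2:**
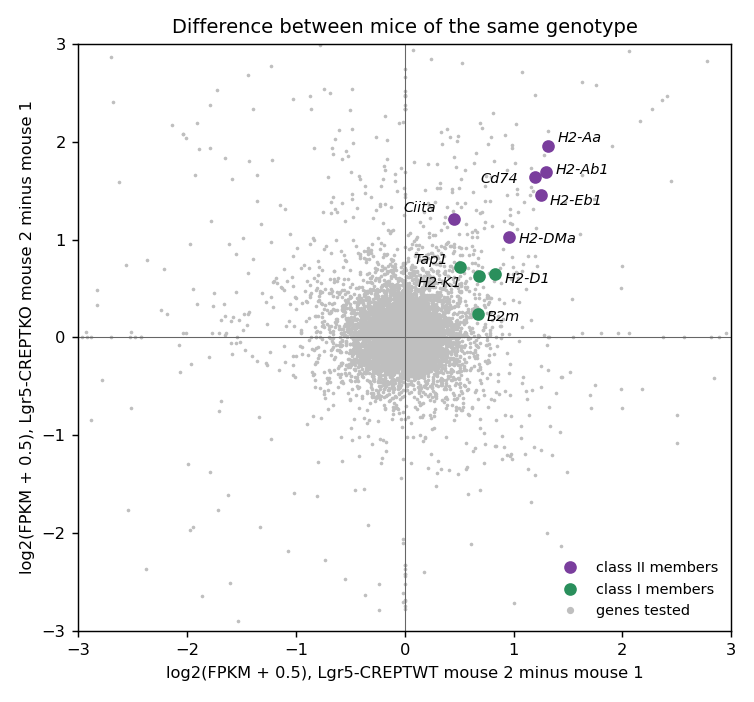
Log2(FPKM + 0.5) difference of mouse 2 minus mouse 1 in Lgr5-CREPTWT (x axis) and in Lgr5-CREPTKO (y axis) for the 12621 genes tested (grey), class II genes (purple) and class I genes (green). All 10 MHC genes lie in the upper right, class II further out than class I apart from Ciita on the x axis, and 50 genes beyond 3 on either axis are not drawn.

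The study asked what loss of CREPT changes in Lgr5+ cells. Of the 10 MHC genes 0 were lower and 0 were higher at an adjusted p below 0.05 by limma's moderated test, where 2.67% of genes tested were lower and 0.412% higher, and at an unadjusted p below 0.05 the members also counted 0, beside 15.2% of genes tested lower and 9.27% higher. For none of the 10 did the values of the genotypes separate, against 31.0% of genes tested with both Lgr5-CREPTKO values below both Lgr5-CREPTWT values and 25.6% with both above. Estimates were negative in 9 of 10, and in 6605 of the 12621 genes tested. The median log2 fold change was -0.66 over the 6 class II genes and -0.21 over the 4 class I genes, beside -0.01 over all genes tested. The estimates depended on single mice. Without Lgr5-CREPTKO mouse 1 the class II median was 0.15 and the class I median 0.11, and without Lgr5-CREPTWT mouse 2 they were -0.05 and 0.17. Without Lgr5-CREPTWT mouse 1 they were -1.20 and -0.58, and without Lgr5-CREPTKO mouse 2 -1.36 and -0.53.

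The intervals show how much these 4 mice could tell. H2-Aa had the largest estimate, a log2 fold change of -1.11 (standard error 0.75, 95% interval -3.04 to 0.82, adjusted p = 0.420). For Cd74 it was -0.63 with an interval of -2.29 to 1.03, for H2-Ab1 -0.72 with an interval of -2.47 to 1.02, and for H2-Eb1 -0.54 with an interval of -2.11 to 1.03. H2-DMa had -0.69 with an interval of -1.84 to 0.47, and Ciita -0.18 with an interval of -1.27 to 0.91. For either chain of I-A the interval thus held both no difference and differences well past those between the group means. The class I intervals were narrower, -1.04 to 0.17 for B2m (estimate -0.43), -0.95 to 0.59 for H2-K1 (-0.18), -1.10 to 0.65 for H2-D1 (-0.23) and -0.42 to 1.06 for Tap1 (0.32). With 2 mice against 2, an exact two-sided permutation test cannot give a p below 0.333, and the p-values rest on the variance limma shares across genes.

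**Figure D3:**
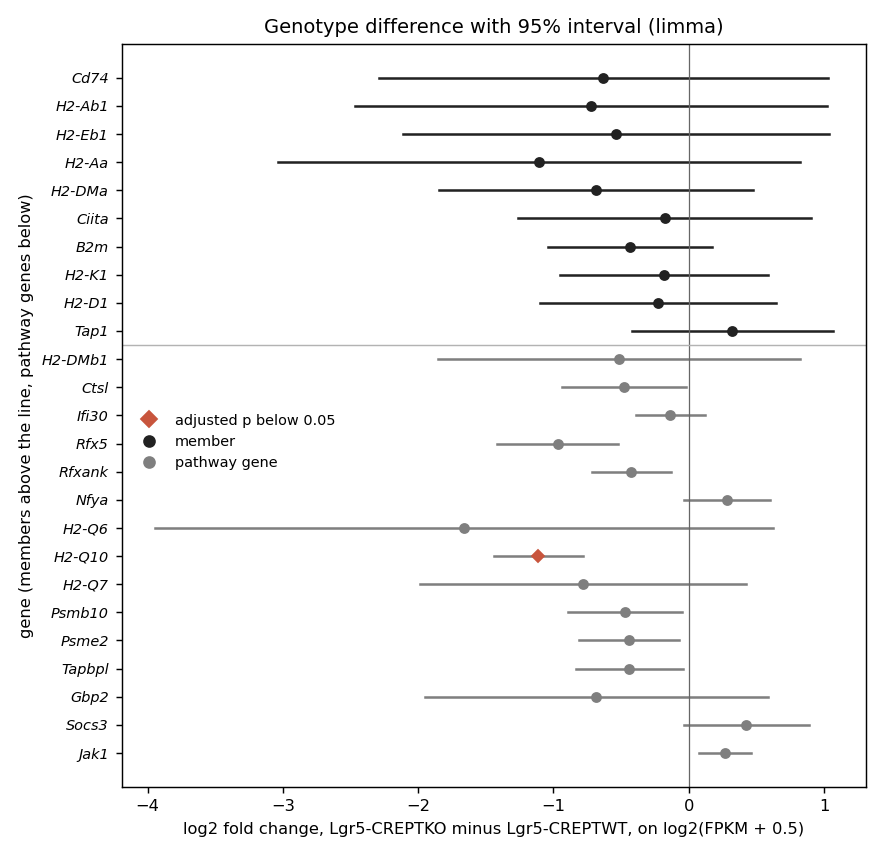
Log2 fold change of Lgr5-CREPTKO over Lgr5-CREPTWT in units of log2(FPKM + 0.5), with limma's 95% interval, for the 10 members (black, above the line) and named pathway genes (grey, below). Every member's interval includes 0, and H2-Q10 (red diamond) is the one gene shown with an adjusted p below 0.05.

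Ratios of partner genes within a mouse show whether they varied in step. They were chosen after the values were seen and carry no test. H2-K1 over H2-D1 was 1.503 and 1.35 in the Lgr5-CREPTWT mice and 1.48 and 1.46 in the Lgr5-CREPTKO mice, and Cd74 over H2-Ab1 was 3.9997 and 3.71, and 4.20 and 4.02. So these pairs kept within 1.11-fold and 1.13-fold of each other while their levels ranged 1.79-fold or more. H2-Aa over H2-Ab1, the alpha and beta chains of I-A, was 0.525 and 0.532 in Lgr5-CREPTWT and 0.365 and 0.443 in Lgr5-CREPTKO mice, without overlap. H2-Eb1 over H2-Ab1 was 0.535 and 0.517, and 0.647 and 0.552. Relative to H2-Ab1, H2-Aa was thus the lower in both Lgr5-CREPTKO mice, and H2-Eb1 and Cd74 the higher by narrow margins. Separation of 2 mice from 2 is common. Of single genes tested, 31.0% had both Lgr5-CREPTKO values below both Lgr5-CREPTWT values and 25.6% had both above. How often ratios separate was not counted.

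On the class I side, H2-K1 over B2m was 0.607 and 0.610 in the Lgr5-CREPTWT mice and 0.633 and 0.827 in the Lgr5-CREPTKO mice. Tap1 over B2m was 0.0424 and 0.0383, and 0.0578 and 0.0810, and Tap1 over Tap2, the 2 subunits of the transporter, was 1.49 and 1.63, and 1.73 and 2.29. In each of these the Lgr5-CREPTKO values lay above, most of all in mouse 2. H2-D1 over B2m overlapped between the genotypes, at 0.404 and 0.452, and 0.428 and 0.567. H2-DMa over H2-DMb1, which form 1 dimer, was 1.01 and 1.01, and 0.988 and 0.806. Ciita over H2-Ab1 was 0.0374 and 0.0213, and 0.0458 and 0.0356, a 2.15-fold range, with the lowest value in the mouse with the most H2-Ab1.

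**Figure D4:**
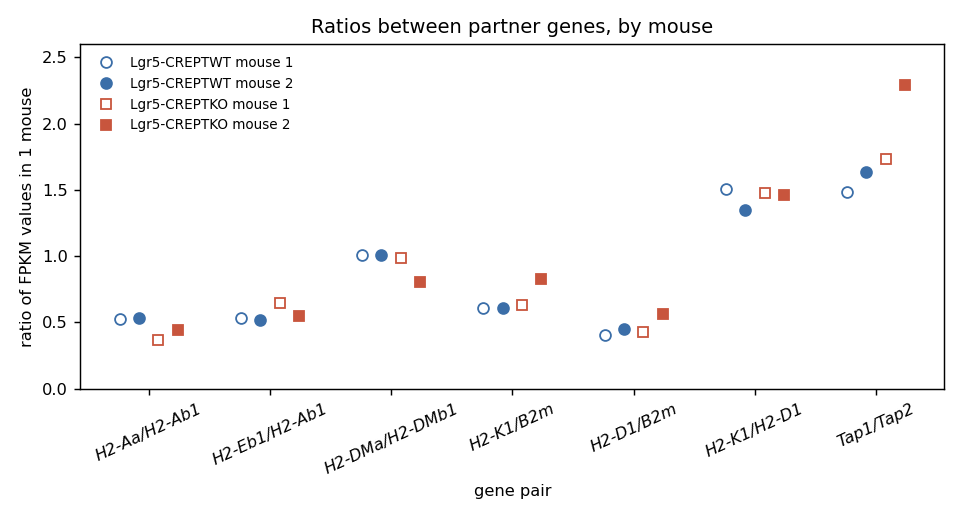
Ratio of FPKM values of partner genes within each mouse, with symbols as in the plot of levels by mouse. H2-K1/H2-D1 stays between 1.35 and 1.503 in all 4 mice, while H2-Aa/H2-Ab1 is lower and Tap1/Tap2 higher in both Lgr5-CREPTKO mice.

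The rest of the class II pathway was read from a list of 10 further genes, of which 8 were in the table and 5 were tested. By limma 0 were called in either direction (1 lower, 0 higher where p is left unadjusted, beside 15.2% and 9.27% of all genes tested), with a median log2 fold change of -0.14. H2-DMb1, the beta chain of H2-DM, was 18.4 and 36.5 FPKM in the Lgr5-CREPTWT mice and 11.3 and 28.7 FPKM in the Lgr5-CREPTKO mice, in step with H2-DMa. The endosomal enzymes differed less between mice of a genotype. Ctss and Lgmn were higher in mouse 2 of both genotypes, and Ifi30 and Ctsl lower. Lgmn was 12.6 and 15.5 FPKM, and 13.9 and 15.2 FPKM. Ifi30, a thiol reductase, was 151 and 137 FPKM, and 141 and 122 FPKM, and Ctss, the protease that trims the invariant chain, was 32.6 and 36.2 FPKM, and 29.6 and 40.7 FPKM. Ctsl, a related protease, was 7.74 and 6.55 FPKM, and 5.79 and 4.26 FPKM (log2 fold change -0.48, adjusted p = 0.189). H2-Oa, H2-Ob and H2-Eb2 were at most 0.22 FPKM in any mouse and were not tested.

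Of 7 factors that bind class II promoters, all tested, 0 were called (2 lower, 0 higher where p is left unadjusted, which 15.2% and 9.27% of all genes tested were) and the median log2 fold change was -0.07. Rfx5, the DNA-binding subunit of the RFX complex on the X box, was 6.78 and 8.18 FPKM in the Lgr5-CREPTWT mice and 3.09 and 4.09 FPKM in the Lgr5-CREPTKO mice (log2 fold change -0.97, standard error 0.17, adjusted p = 0.0601). Rfxank, another RFX subunit, was 7.99 and 8.82 FPKM, and 5.82 and 6.46 FPKM (log2 fold change -0.42, adjusted p = 0.110). In both genes the 2 Lgr5-CREPTKO values lay below both Lgr5-CREPTWT values, as in 31.0% of genes tested, but neither passed the threshold. Rfxap, the remaining subunit, was between 10.5 and 11.2 FPKM in all 4 mice. Nfya, a subunit of NF-Y, which binds the inverted CCAAT element, was 24.2 and 25.9 FPKM, and 34.0 and 27.4 FPKM (log2 fold change 0.28, adjusted p = 0.241). Its Lgr5-CREPTKO values both lay above, as in 25.6% of genes tested.

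Among 19 further class I and class I-like heavy chain genes, 18 were in the table and 15 tested. Their median log2 fold change was -0.27. The moderated test called 1 of the 15 lower and 0 higher, against shares of 2.67% and 0.412% among the 12621 genes. Without adjustment of p, 2 of the 15 were lower and 0 higher, against shares of 15.2% and 9.27%. The one called was H2-Q10, a secreted class I-like chain known mainly from liver, which fell from 5.14 and 5.57 FPKM to 2.25 and 2.16 FPKM (log2 fold change -1.11, standard error 0.13, adjusted p = 0.0333 from limma). With any single mouse left out no gene of the table was called, and the log2 fold change of H2-Q10 stayed between -1.17 and -1.06. Of its 50-base transcript words, at least 19.0% also occur in other genes, H2-Q7 above all, so its value depends on how shared reads were divided. The non-classical chain H2-T23, which carries leader peptides to NK cell receptors, was 52.2 and 76.9 FPKM, and 33.5 and 49.6 FPKM.

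H2-Q6, H2-Q7, H2-Q8 and H2-Q9, related neighbours that encode Qa-2, were each low, and 4 of 4 had the order over the mice that the class II chains had. H2-Q9 was 0.740 and 8 FPKM in the Lgr5-CREPTWT mice and 0.630 and 7.54 FPKM in the Lgr5-CREPTKO mice, high in mouse 2 of each genotype. H2-Q6 was 1.96 and 5.15 FPKM, and was listed at 0 and at 2.29 FPKM (log2 fold change -1.66, adjusted p = 0.320). H2-Q7 was 6.35 and 12.99 FPKM, and 3.36 and 7.61 FPKM (log2 fold change -0.78, adjusted p = 0.372). Reads shared among related genes can be divided in several ways, so their sum is given too, and it was 11.3 and 32.3 FPKM, and 4.90 and 22.1 FPKM. That sum was formed after the values were seen. Of their 50-base words, H2-Q6 and H2-Q7 share 32.0% and 26.4% with other genes, and H2-K1 and H2-D1 share 9.63% and 12.8%. H2-Q8 and H2-Q9 were not found among the transcripts used, so these shares are minimum values. Cd74, B2m, Ciita, H2-Ab1, H2-DMa and H2-Eb1 share none.

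All 13 genes of class I peptide supply and loading were tested and all 13 had negative estimates, as had 6605 of the 12621 genes tested. The median log2 fold change was -0.36, and Erap1, Tap2 and Canx were only at -0.024, -0.024 and -0.053. By limma 0 were called (5 lower, 0 higher where p is left unadjusted, beside 15.2% and 9.27% of all genes tested). Psme2, a subunit of the PA28 proteasome activator, was 223 and 256 FPKM in the Lgr5-CREPTWT mice and 155 and 199 FPKM in the Lgr5-CREPTKO mice (log2 fold change -0.44, adjusted p = 0.150). Psmb10, an immunoproteasome subunit, was 115 and 128 FPKM, and 74.6 and 102.5 FPKM (log2 fold change -0.47, adjusted p = 0.172), and Tapbpl, a peptide editor, was 24.3 and 26.9 FPKM, and 16.2 and 21.7 FPKM (log2 fold change -0.44, adjusted p = 0.174). These 3 separated the genotypes, as did 6 of the 13 in all, where 31.0% of genes tested had both Lgr5-CREPTKO values below both Lgr5-CREPTWT values. Tap2, the partner of Tap1, was 11.0 and 14.3 FPKM, and 11.0 and 13.8 FPKM. Nlrc5, the coactivator of class I genes, was 0.990 and 2.36 FPKM, and 0.620 and 2.57 FPKM, again higher in mouse 2 of each genotype.

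Of 17 genes of interferon gamma signalling, 14 were tested, 0 were called (0 lower, 1 higher where p is left unadjusted, beside the same shares of all genes), and 7 had negative and 7 positive estimates around a median of -0.0016. Ifng itself was at most 0.09 FPKM in any mouse. Irf1, a transcription factor induced by interferon, was 87.5 and 94.8 FPKM in the Lgr5-CREPTWT mice and 80.8 and 100.9 FPKM in the Lgr5-CREPTKO mice. Mouse 2 was higher in both genotypes in 10 of the 14 (26.2% of genes tested). The list's median difference was 0.12 in Lgr5-CREPTWT and 0.25 in Lgr5-CREPTKO on the log2 scale, where the class II members had 1.22 and 1.55. Igtp, an interferon-inducible GTPase, was 4.88 and 8.27 FPKM, and 4.57 and 11.8 FPKM. Jak1 was 27.9 and 26.5 FPKM, and 32.3 and 33.4 FPKM (log2 fold change 0.27, adjusted p = 0.120), Socs3 had a log2 fold change of 0.43 (adjusted p = 0.232) and Gbp2 one of -0.68 (adjusted p = 0.447).

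Marker lists of other cells moved between the mice as well. Summed over 13 genes of T cells and intraepithelial lymphocytes, the level was 30.7 and 57.5 FPKM in the Lgr5-CREPTWT mice and 9.62 and 96.8 FPKM in the Lgr5-CREPTKO mice, so mouse 2 was 1.87-fold and 10.1-fold above mouse 1. Gzma, a granzyme, led this list at 10.3 and 21.0 FPKM, and 2.09 and 35.1 FPKM, while Ptprc, the pan-leukocyte gene CD45, was 0.40 and 0.770 FPKM, and 0.140 and 1.35 FPKM. Of the 12 genes of the list that were tested, 11 were higher in mouse 2 of both genotypes (26.2% of genes tested). The list's median difference was 0.56 in Lgr5-CREPTWT and 1.94 in Lgr5-CREPTKO on the log2 scale. In 11 of the 13 genes, and in 3.26% of genes tested, the order from low to high was Lgr5-CREPTKO mouse 1, Lgr5-CREPTWT mouse 1, Lgr5-CREPTWT mouse 2 and Lgr5-CREPTKO mouse 2, an order that Ciita had and the other 5 class II genes did not. Their own order, with Lgr5-CREPTWT mouse 2 highest, was that of 8 of the 10 members and of 3.51% of genes tested. These orders differ only in which mouse 2 is highest. The part of lymphocytes in these values was not tested.

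Markers of the cells best known for class II were low. Of the 13 macrophage and dendritic cell markers in the table, 8 were under 1 FPKM in every mouse, Adgre1 was at most 0.02 FPKM and Itgax at most 0.29 FPKM. The list summed to 10.9 and 12.9 FPKM in the Lgr5-CREPTWT mice and 6.86 and 14.3 FPKM in the Lgr5-CREPTKO mice, with Cd68 its highest gene. Of its 5 tested genes 4 were higher in mouse 2 of both genotypes (26.2% of genes tested). The median difference was 0.66 in Lgr5-CREPTWT and 1.54 in Lgr5-CREPTKO on the log2 scale, where the class II members had 1.22 and 1.55. Tyrobp, a myeloid and NK cell adaptor, was 0.49 and 1.06 FPKM, and 0.29 and 2.42 FPKM. Fcer1g, an Fc receptor chain, was 0.75 and 2.29 FPKM, and 0.41 and 2.15 FPKM. Cd68 was 6.5 and 5.21 FPKM, and 4.2 and 4.58 FPKM, and Itgam was 2.04 and 2.25 FPKM, and 1.28 and 1.53 FPKM. For Cd68 and Itgam both Lgr5-CREPTKO values lay below both Lgr5-CREPTWT values, as in 31.0% of genes tested. Of the 10 B and plasma cell markers 9 were under 1 FPKM in every mouse, and Pax5 was listed at 0 in 3 of the 4, with a summed level of 2.32 and 2.04 FPKM, and 1.84 and 2.97 FPKM. Of 9 stromal and endothelial markers 8 were under 1 FPKM in every mouse, and the list summed to 0.740 and 0.720 FPKM, and 1.52 and 1.30 FPKM. Their part in the class II values was not tested.

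Epithelial lists differed too. All 15 enterocyte markers were higher in mouse 2 of both genotypes (26.2% of genes tested). Their sums were 928 and 1172 FPKM in the Lgr5-CREPTWT mice and 729 and 1127 FPKM in the Lgr5-CREPTKO mice. The 18 secretory lineage markers summed to 1903 and 2507 FPKM, and to 1146 and 1812 FPKM. Of these, 2 were called lower in Lgr5-CREPTKO cells by limma (2.67% of genes tested) and 10 were lower with p left unadjusted (15.2%). Their median log2 fold change was -1.05. Mouse 2 was higher in both genotypes in 5 of the 18 (26.2% of genes tested). Only Defa17, Lyz1 and Ang4 had positive estimates, and they were higher in mouse 2 of Lgr5-CREPTKO only. In the Lgr5-CREPTKO mice Defa17 was 245 and 597 FPKM and Lyz1 152 and 407 FPKM, the largest values of the list in mouse 2. In 14 of the 18 both Lgr5-CREPTKO values lay below both Lgr5-CREPTWT values (31.0% of genes tested). The 10 stem cell markers, Olfm4 above all, were 5675 and 5496 FPKM, and 6035 and 5881 FPKM, a sum made up mostly of Olfm4. In 9 of the 10 both Lgr5-CREPTKO values lay above both Lgr5-CREPTWT values (25.6% of genes tested), with 0 called and 5 higher where p is left unadjusted (9.27%), among them the Wnt targets Axin2 and Ascl2. In such bulk samples fewer cells that express a gene and less RNA of it per cell cannot be told apart, and the part of these lists in the MHC values was not tested.

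**Figure D5:**
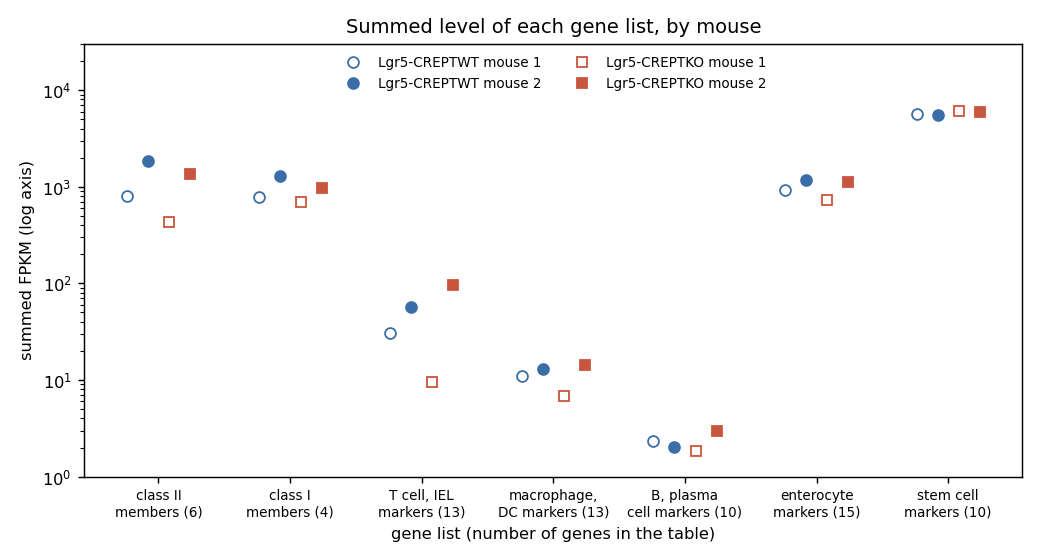
Summed FPKM per mouse on a log axis for the class II and class I members and for marker lists of T cells and intraepithelial lymphocytes (IEL), macrophages and dendritic cells (DC), B and plasma cells, enterocytes and stem cells. Class II spans 431 to 1852 FPKM and the T cell list 9.62 to 96.8 FPKM. Lgr5-CREPTKO mouse 1 is lowest in both, with Lgr5-CREPTWT mouse 2 highest in the first and Lgr5-CREPTKO mouse 2 highest in the second.

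The genes most like the members were sought among 9010 others with a mean of at least 5 FPKM, by the root mean square distance of log2 values centred on each gene's mean over the 4 mice. Nearest to the mean profile of Cd74, H2-Aa, H2-Ab1, H2-Eb1 and H2-DMa were Zg16, a goblet cell lectin (distance 0.11), Reg3b, an antimicrobial lectin (0.16), H2-DMb1 (0.16), H2-Q7 (0.19) and Apoc2, an apolipoprotein (0.23), where the farthest of the 5 members was at 0.24. Zg16 was 129 and 287 FPKM in the Lgr5-CREPTWT mice and 59.9 and 165 FPKM in the Lgr5-CREPTKO mice, and Reg3b was 197 and 456 FPKM, and 121 and 262 FPKM. For the class I profile they were Reg3a, Dyrk1b, 2210407C18Rik, Cox7a1 and Mogat2, at distances from 0.05 to 0.07. The farthest of the 4 class I members was at 0.24 from that mean profile. With 4 mice many genes lie close to any profile, so likeness here describes these libraries.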

How the data were processed

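The values deposited by the authors are FPKM, rounded to 2 decimals, for 4 mice in a single table keyed by gene symbol. By the study's methods, reads were mapped with Bowtie2 to reference transcripts of GRCm38.p6 and quantified with RSEM, and the labels also name HISAT and mm10. FPKM divides by transcript length and library total. The study used a count model at q below 0.05, which cannot be run on FPKM, so limma 3.58.1 in R 4.3.3 (lmFit, eBayes with trend, Benjamini-Hochberg) was run on log2(FPKM + 0.5) for 12621 of 18436 genes, those whose mean reached 0.5 FPKM, without covariates. On this scale changes of low genes are understated. Members, gene lists and the rule for named genes (every member, the genes of each pathway list that were called or had the 3 largest changes, and the 5 genes of most similar pattern) were chosen with earlier results of these data known. Genes given beyond that rule, such as Ctss, H2-T23, H2-Q9, Nlrc5, Irf1 and single markers, were chosen after their values were seen. Columns were matched to mice by sample title. The fit was tested on simulated data in which, apart from counting noise, every gene had the same spread between mice. That test does not show how the fit treats genes that differ as widely between mice as the class II genes. Positions and promoters are from RefSeq on GRCm38.p6, and shared 50-base words from GENCODE M21 transcripts, using Python 3.11.15 and pandas 2.3.3. Alternatives varied the pseudocount, the filter, the scaling, small RNA genes, the trend, a replicate block and single mice.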

Additional observations from a re-analysis of the deposited data

How the results depend on the processing

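At an adjusted p below 0.05, 0 of the 10 members were called in either direction under all 13 alternatives. Leaving out 1 mouse at a time moved the log2 fold change of Cd74 between -1.45 and 0.19, of H2-Ab1 between -1.57 and 0.12, of H2-Eb1 between -1.27 and 0.19, of Ciita between -0.78 and 0.43, of H2-K1 between -0.52 and 0.15, of H2-D1 between -0.64 and 0.19 and of Tap1 between -0.036 and 0.68, so their direction rests on single mice. H2-Aa (-2.09 to -0.13), H2-DMa (-1.20 to -0.18) and B2m (-0.77 to -0.10) stayed negative. A lone mouse is then assumed to vary like the other group. Of the pathway lists, 1 gene was called lower, against 0 with no filter on low values, 0 with no trend, 2 with small RNA genes left out and 0 without any single mouse. Over all genes, 337 were lower and 52 higher, against 0 and 0 with no filter (2250 and 1320 unadjusted), 4 and 0 with no trend, 508 and 115 with small RNA genes left out, 166 and 36 after rescaling to one total, and 0 and 0 without any single mouse. The cause was not tested. Median-of-ratios scaling shifted the median of all genes to 0.02 and rescaling to 0.05, and the class II median was then -0.63 and -0.59.

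No source ties same-numbered mice together, so the numbers were not taken to pair them. The correlation of their deviations across all genes was -0.03, a value that cannot show a link limited to part of the genes. All 10 members and all 15 enterocyte markers were higher in mouse 2 of both genotypes, as were 26.2% of genes tested. Whether same-numbered mice shared a batch was not tested. With the replicate number as a block, 168 genes were lower and 15 higher, 0 members were called, and 7 members were lower and 1 higher where p was left unadjusted, as were 14.8% and 8.22% of all genes. The blocked adjusted p was 0.0514 for H2-DMa, 0.0579 for H2-Aa, 0.0610 for H2-Ab1, 0.0660 for H2-Eb1, 0.0846 for Cd74 and at least 0.137 for the other 5 members, and H2-Q10, at 0.0514, was no longer called. The depth of each library is unknown, and 2 mice per genotype limit every interval.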
